A study of Mus musculus with 8 samples.

Results

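Beta-arrestins, regulators of G protein signalling (Rgs proteins) and G protein-coupled receptor kinases (Grk proteins) were examined in activated mouse CD4 T cells labelled as Bcl6 conditional knockout or as wild type. The set has 10 members, chosen by name with the comparison below already known: Arrb1, Arrb2, Rgs1, Rgs2, Rgs3, Rgs10, Rgs14, Rgs16, Grk5 and Grk6. A single gene symbol identified 9 of them among the 19938 genes tested. Rgs10 had no cluster named by the platform annotation and was not analysed here. RNA of each sample was hybridised to 1 Affymetrix array, 8 in all. In the first group of 4 samples, called Bcl6 cKO, the labels give a conditional deletion of Bcl6 in T cells, and the second group of 4 was wild type. Cells of both groups were naive CD4 T cells, sorted and then activated for 24 hours through CD3 and CD28 by antibodies, so that none of the samples was unstimulated. The labels carry a tag, Tf0, that they do not explain, and they name neither the Cre line nor the deleted exons, and give no age or sex of the mice. Nothing in them says that each sample came from an animal of its own. Each group held arrays of both sexes by the signals below, and so more than 1 source, but samples of the same sex may share one, and p-values cover only how much these samples vary.

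Receptors for chemokines, sphingosine-1-phosphate, prostaglandins and adenosine act through heterotrimeric G proteins. An Rgs protein ends the signal by speeding up hydrolysis of the GTP bound to the alpha subunit. A Grk protein phosphorylates the occupied receptor, and a beta-arrestin then binds it, uncouples it from its G protein and brings it to clathrin-coated pits. In lymphocytes these proteins help to set how strongly and for how long a cell responds to chemokines.

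The arrays were alike in scale, with median log2 signals between 7.57 and 7.64 over the genes tested, and arrays have no read depth, so their number limits the precision. Transcript of Bcl6 was still read on the arrays labelled knockout (8.74 ± 0.27 in Bcl6 cKO and 8.37 ± 0.20 in wild type, log2, mean ± SD, n = 4 each), and the probes may lie outside the deleted part, so this checks nothing about the labels. By the signal of Uty, Kdm5d and Eif2s3y, which are Y-linked, male cells gave 1 Bcl6 cKO array and 3 wild-type arrays, and female cells gave 3 Bcl6 cKO arrays and 1 wild-type array. Sex and genotype thus overlapped in part, and differences with sex in the model are given for the members they move most. The silent Y-linked clusters of the female arrays read 4.58 to 5.83, and no member fell below 7.24 on any array. Cd3e, a gene of all T cells, and Cd4 were high on all arrays. Of 20 markers of B cells, myeloid cells and natural killer cells, 8 had means no higher than the silent Y-linked clusters, and the rest had higher means. Among the rest, the B cell marker Cd79b read up to 7.63 and the myeloid marker Cd68 up to 8.42. The dimmest members, Rgs2 and Grk5, read in that range, so their level alone does not show that they are expressed.

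Arrb1 encodes beta-arrestin 1. Its log2 signal was 9.65, 9.28, 9.52 and 9.42 on the Bcl6 cKO arrays, against 9.90, 9.92, 9.90 and 10.01 on the wild-type arrays. Every Bcl6 cKO array lay below every wild-type array, with a gap of 0.25 between the groups, and the wild-type values were close together (SD 0.053) while the Bcl6 cKO values spread more (SD 0.16). Arrb1 fell 1.38-fold, to 72.4% of the wild-type signal (95% confidence interval of the log2 difference -0.63 to -0.30; limma, adjusted p = 0.0423 over all genes). It was the 1 member of 9 past an adjusted p of 0.05, where 0.221% of all genes passed (0.115% lower and 0.105% higher). Since the set was assembled around genes of this comparison, that count and the p-value describe the data and lend no support. In a bulk sample, fewer cells that express a gene and less of its RNA per cell cannot be told apart.

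The difference of Arrb1 kept its sign in all 20 other settings and stayed past the threshold in 8 of them. Leaving out 1 array gave differences between -0.53 and -0.40, and the call held only without Bcl6 cKO replicate 1 (adjusted p = 0.0138). Without any other single array, namely Bcl6 cKO replicates 2, 3 or 4 or wild-type replicates 1, 2, 3 or 4, it did not pass (limma, adjusted p between 0.0691 and 0.164). With sex in the model the difference was -0.43 (adjusted p = 0.184). Among the male arrays it was -0.26 and among the female arrays -0.60, on the assumption that a genotype's lone array varies as the others do. The test of the difference between the sexes did not pass (limma interaction, 0.35 with a standard error of 0.14, adjusted p = 0.394).

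Arrb2, the other beta-arrestin found outside the eye, had log2 signals of 10.80, 10.69, 10.78 and 10.76 in Bcl6 cKO, against 10.90, 10.99, 10.92 and 10.90 in wild type. The groups did not overlap here either. The log2 difference was -0.17 with a standard error of 0.049, and it did not pass over all genes (limma, adjusted p = 0.219). The 2 genes lie on different chromosomes, Arrb1 on chromosome 7 and Arrb2 on chromosome 11. Values of Arrb2 were among the steadiest measured: 6.07% of all genes had a smaller SD within groups.

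**Figure D1:**
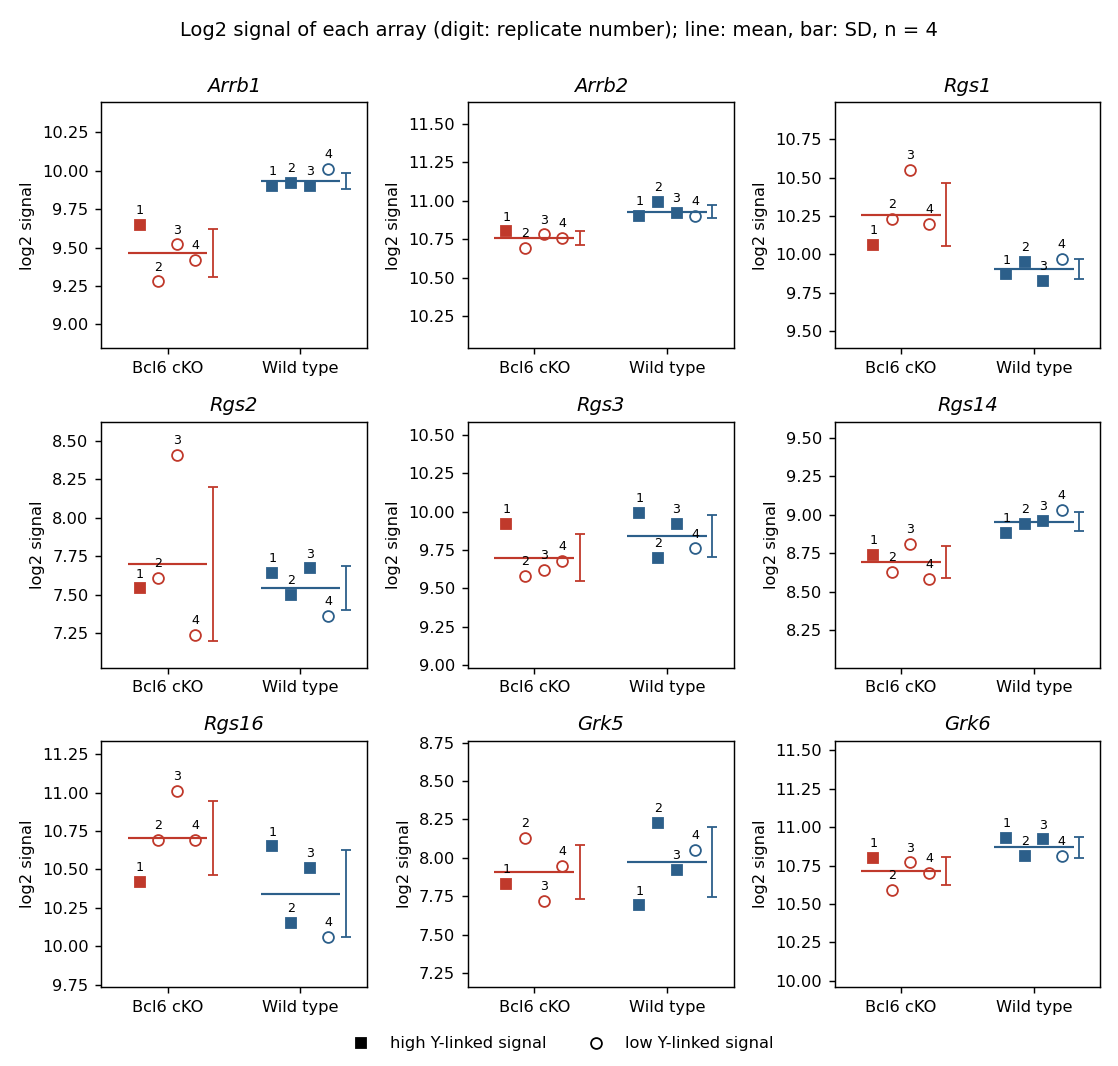
Log2 signal of the 9 measured members on each array, Bcl6 cKO left and wild type right, with the replicate number over each point, the mean as a line and the SD as a bar (n = 4 each). All panels span the same number of log2 units; squares mark arrays with high Y-linked signal. Groups do not overlap for Arrb1, Arrb2, Rgs1, Rgs14 and Grk6.

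Among the receptor kinases, Grk6, which phosphorylates chemokine receptors in lymphocytes, had log2 signals of 10.80, 10.59, 10.77 and 10.70 in Bcl6 cKO, against 10.93, 10.81, 10.92 and 10.81 in wild type. The groups were separate by 0.01 only, the last digit deposited. The log2 difference was -0.15 with a standard error of 0.060 (limma, adjusted p = 0.386). With sex in the model it was -0.11, and its 95% confidence interval included 0 (-0.25 to 0.042). Grk5, a kinase of the same subfamily, had 7.83, 8.13, 7.72 and 7.95 in Bcl6 cKO, against 7.69, 8.23, 7.92 and 8.05 in wild type. The groups overlapped almost wholly (difference -0.065, 95% confidence interval -0.32 to 0.19), and with sex in the model the difference was -0.12. Its values followed the replicate number instead: the 4 arrays with odd numbers read 7.69 to 7.92 and the 4 with even numbers 7.95 to 8.23, across both genotypes. The labels give the numbers no meaning, odd-numbered arrays were mostly male, and this split was noticed after the values were seen. It was not particular to Grk5, and its share over all genes was not counted. Arrdc4, an alpha-arrestin gene, read 7.06 to 7.32 on odd-numbered arrays and 7.9 to 8.22 on even-numbered ones. Nr4a1, an activation gene, went the other way, with 12.66 to 13.11 on odd-numbered and 12.06 to 12.37 on even-numbered arrays.

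Rgs1, induced in activated lymphocytes and known for restraining their chemokine responses, had log2 signals of 10.06, 10.23, 10.55 and 10.20 in Bcl6 cKO, against 9.87, 9.95, 9.83 and 9.97 in wild type. All Bcl6 cKO arrays lay above all wild-type arrays, with a gap of 0.09. The log2 difference was 0.36 with a standard error of 0.092 (1.28-fold; limma, adjusted p = 0.175), and 0.27 with sex in the model (adjusted p = 0.402). Without any 1 array it ranged from 0.26 to 0.42, and none of these fits passed.

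Rgs16, another Rgs gene induced by activation, had 10.42, 10.69, 11.01 and 10.69 in Bcl6 cKO, against 10.65, 10.15, 10.51 and 10.06 in wild type. The groups overlapped, since the male Bcl6 cKO array read lower than 2 of the wild-type arrays. The log2 difference was 0.36, with a 95% confidence interval of 0.037 to 0.68 (limma, adjusted p = 0.398). It was -0.017 among the male arrays and 0.74 among the female arrays, and the test of that difference did not pass (limma interaction, adjusted p = 0.383). Rgs2, which acts mainly on Gq alpha subunits, had 7.54, 7.61, 8.41 and 7.24 in Bcl6 cKO, against 7.64, 7.5, 7.67 and 7.36 in wild type. Bcl6 cKO replicate 3 stood alone above the rest. With it the log2 difference was 0.16, and without it -0.079; 99.0% of all genes had a smaller SD within groups than Rgs2.

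Rgs1, Rgs2 and Rgs16 share chromosome 1. Along the chromosome (GRCm38.p6), with only tested genes counted, Rgs2, Rgs13, Rgs1, Rgs21 and Rgs18 follow each other, and Rgs8 is next to Rgs16. The neighbours Rgs13, Rgs21 and Rgs18 had group means between 4.32 and 4.77, within or below the range of the silent Y-linked clusters. Their log2 differences were -0.033, -0.050 and 0.19, and that of Rgs8 was -0.010. At such low signals the 3 could hardly show a difference, so they say nothing about the stretch around Rgs1, and differences between genes were not tested.

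Sequence upstream of the start was taken from RefSeq (GRCm38.p6) for 5 of the 9 measured members that its promoter table lists. The stretches of Rgs16, Rgs2 and Grk6 are shown because the first has the largest positive difference of the measured members, the next the widest spread, and the last a negative difference with separate groups. Each gives the 250 bases before the start, 5′ to 3′ on the gene's strand, with capitals for a match to any motif searched. Rgs16 lies at chr1:153740103-153740352 on the plus strand, Rgs2 at chr1:144004150-144004399 on the minus strand, and Grk6, by the first of its 3 listed starts, at chr13:55444822-55445071 on the plus strand.
Rgs16: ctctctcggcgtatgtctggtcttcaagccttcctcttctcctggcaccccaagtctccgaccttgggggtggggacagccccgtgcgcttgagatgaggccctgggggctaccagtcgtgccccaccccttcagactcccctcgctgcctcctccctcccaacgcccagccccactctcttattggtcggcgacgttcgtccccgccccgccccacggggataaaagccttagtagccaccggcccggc
Rgs2: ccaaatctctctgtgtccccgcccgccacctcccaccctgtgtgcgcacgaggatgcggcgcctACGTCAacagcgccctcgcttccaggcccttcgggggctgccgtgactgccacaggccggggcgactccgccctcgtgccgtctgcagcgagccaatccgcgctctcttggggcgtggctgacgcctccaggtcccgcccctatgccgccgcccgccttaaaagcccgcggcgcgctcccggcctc
Grk6: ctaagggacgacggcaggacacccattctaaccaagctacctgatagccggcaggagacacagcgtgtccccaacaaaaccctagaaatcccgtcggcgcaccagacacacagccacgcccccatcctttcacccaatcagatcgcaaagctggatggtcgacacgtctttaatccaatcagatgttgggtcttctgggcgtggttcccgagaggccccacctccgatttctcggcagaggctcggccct

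The letters TTCCTAGAA, which Bcl6 binds, were searched on both strands and occurred in none of the 9 windows listed for members (Rgs10 and alternative starts included), against 0.347% of all 32851 promoter windows. The wider spacing TTCNNNGAA, which contains those letters and is shared with STAT proteins, was likewise absent from the 9 windows and present in 7.02% of all. The AP-1 motif TGANTCA was in none of the 9 and in 6.75% of all. The letters TGACGT, part of the cAMP response element, occurred once, in Rgs2, 186 bases before the start and on the opposite strand, against 6.47% of all windows. They are longer than the half-site TGACG, which was not searched and stands unmarked elsewhere in the printed Rgs2 stretch. At these shares few or no matches would be found in 9 windows of any kind, and a missing match says only that the letters are not in this stretch. The Rgs2 and Rgs16 windows were rich in G and C (72.4% and 66.4%), with 58% in Grk6 and a median of 52.4% over all windows.

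Rgs14 differs from the other Rgs proteins of the set in that it also carries a GoLoco motif, which holds Gi alpha subunits in their GDP-bound form. Its log2 signals were 8.74, 8.63, 8.81 and 8.58 in Bcl6 cKO, against 8.88, 8.94, 8.96 and 9.03 in wild type. No Bcl6 cKO array reached the lowest wild-type array. The log2 difference was -0.26 with a standard error of 0.062 (83.4% of the wild-type signal; limma, adjusted p = 0.141), and -0.27 with sex in the model. It was the member nearest to Arrb1 in its values over the 8 arrays: after centring each gene on its mean, the root mean square difference from Arrb1 was 0.13, which gave it rank 65 among all genes. Rgs14 and Grk6 lie close together on chromosome 13, with Slc34a1, Pfn3 and F12 between them in the gene order. The log2 differences of these 3 were 0.025, -0.080 and -0.010.

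Rgs3, which has long and short protein forms, was read by 2 clusters. The one with the higher mean had log2 signals of 9.92, 9.58, 9.62 and 9.68 in Bcl6 cKO, against 9.99, 9.70, 9.92 and 9.76 in wild type. The second had 7.81, 7.66, 7.75 and 7.73 in Bcl6 cKO, against 7.88, 7.79, 7.83 and 7.75 in wild type. Both overlapped between the groups, with log2 differences of -0.14 (95% confidence interval -0.34 to 0.051) and -0.075 (-0.19 to 0.040), so the clusters pointed the same way and neither interval excluded 0. With sex in the model the difference of the first was -0.042 (95% confidence interval -0.23 to 0.14).

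Of the 9 members, 6 had a mean below and 3 a mean above wild type, with a median log2 difference of -0.14, against 0.0025 over all genes. Groups did not overlap for 5 members, 4 lower and 1 higher, against 5.97% of all genes (3.64% lower and 2.33% higher), but these counts carry the choice of the members with them and nothing is read from that share. Signs were the same in both sexes for 6 members. The exceptions were Rgs2, Rgs3 and Rgs16.

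**Figure D2:**
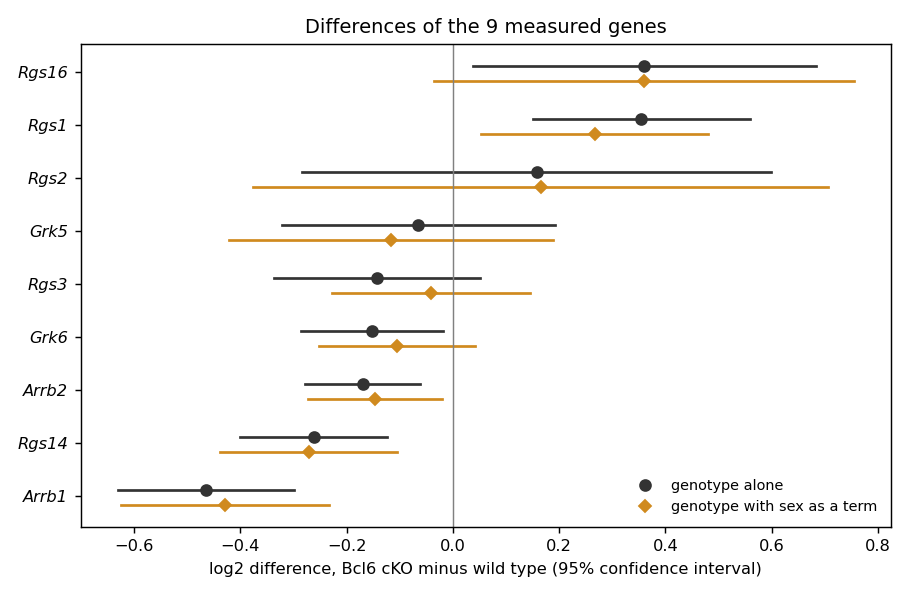
Log2 difference (Bcl6 cKO minus wild type) of the 9 measured members with 95% confidence intervals, for genotype alone (circles) and with sex in the model (diamonds). Rgs1 and Rgs16 lie near 0.36 and Arrb1 at -0.47 with genotype alone. With sex in the model the intervals of Rgs16 and Grk6 come to include 0. That of Arrb1 does not, but Arrb1 did not pass over all genes there (limma, adjusted p = 0.184).

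Sex itself had not been used to choose the members and was tested as the second term of the model. None of the 9 members differed by sex past the threshold (limma; 0.0301% of all genes did), and 1 had an unadjusted p under 0.05, against 8.28% of all genes. That member was Rgs3, higher on the male arrays by 0.20 with a standard error of 0.083 (adjusted p = 0.594). Odd-numbered arrays, which were mostly male, also read higher in Rgs3, and sex and number were not separated.

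None of the 8 CD4, 4 CD8 and 5 regulatory T cell markers passed over all genes (limma), but array means of these lists were lower in Bcl6 cKO. The 8 markers listed for CD4 T cells are mostly shared with other T cells. Their array means were 12.30 to 12.45 in Bcl6 cKO and 12.45 to 12.47 in wild type, with 7 of the 8 below wild type. The mean log2 signal of 5 markers of regulatory T cells was 9.94 to 10.16 on the Bcl6 cKO arrays and 10.36 to 10.54 on the wild-type arrays, with 4 of the 5 markers below wild type. The list mean rests largely on Gpr83, with a log2 difference of -1.2. Foxp3, the lineage factor of regulatory T cells, had a log2 difference of -0.50 (limma, adjusted p = 0.199). Ikzf2 had -0.245, Ctla4 -0.065 and Il2ra, also an activation gene, 0.11. Of 4 markers of CD8 T cells all were below wild type, with array means of 7.82 to 7.99 in Bcl6 cKO and 8.01 to 8.19 in wild type. That list mean rests mostly on Cd8b1, with a difference of -0.47 (limma, adjusted p = 0.0541). Cd8a had -0.0225 and Gzmk -0.03, both smaller than their standard errors of 0.063 and 0.055. Eomes had -0.26 with a standard error of 0.25. Array means of the other lists in Bcl6 cKO and in wild type were 6.35 to 6.43 and 6.34 to 6.41 for 7 B cell markers, and 6.43 to 6.66 and 6.49 to 6.57 for 8 myeloid markers. For 5 natural killer cell markers they were 4.73 to 4.83 in Bcl6 cKO and 4.82 to 4.90 in wild type. Above wild type were 5 of the 7 B cell, 3 of the 8 myeloid and 2 of the 5 natural killer cell markers. The largest differences in these lists were those of Klrd1 (-0.49, natural killer cells) and Fcgr3 (-0.32, myeloid cells). None of the markers of other cells passed over all genes, and their part in the values of Arrb1 and the other members was not tested.

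The rest of the pathway was covered by 6 lists of 143 genes, of which 137 were measured. None of the 137 passed over all genes (limma), and 23 of them (16.8%) had an unadjusted p under 0.05, against 10.8% of all genes. The lists were chosen with earlier results of these data known. The share over all genes also includes many dim genes, so nothing is read from the gap between these shares. Among 28 receptors of T cells, 16 were below and 12 above wild type, with a median log2 difference of -0.035. Gpr83, a receptor also counted above as a marker of regulatory T cells, had log2 signals of 9.95, 9.0, 9.30 and 9.09 in Bcl6 cKO, against 10.97, 10.32, 10.77 and 10.08 in wild type (difference -1.2, adjusted p = 0.0664). The groups were separate, and Bcl6 cKO replicate 1, the male array, was the highest of its group. Next by p-value came a pair of receptors for cell positioning, the sphingosine-1-phosphate receptor S1pr4 (difference -0.49, adjusted p = 0.126) and the chemokine receptor Cxcr4 (-0.37, adjusted p = 0.16).

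The G protein subunits and their chaperones were balanced, with 16 of 33 above and 16 below wild type and a median log2 difference of 0. Gpsm3, which like Rgs14 binds Gi alpha subunits through GoLoco motifs, had log2 signals of 9.52, 9.28, 9.39 and 9.43 in Bcl6 cKO, against 9.70, 9.71, 9.68 and 9.73 in wild type (difference -0.30, adjusted p = 0.0684). All 4 wild-type arrays lay within 0.05 of each other and above the Bcl6 cKO arrays. Gnaq, the alpha subunit that activates phospholipase C beta, went the other way, with 8.72, 8.63, 9.01 and 8.69 in Bcl6 cKO, against 8.39, 8.27, 8.48 and 7.98 in wild type (difference 0.48, adjusted p = 0.132). Gnai2, the Gi alpha subunit that serves chemokine receptors in lymphocytes, had a difference of -0.14 (adjusted p = 0.272), again with separate groups. None of the 3 passed.

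Of 27 genes that make, break down or relay second messengers, 17 were below and 10 above wild type (median -0.025). The cAMP phosphodiesterase gene Pde4d had a difference of -0.21, the adenylyl cyclase gene Adcy6 -0.33 and the phosphodiesterase gene Pde8a 0.29. Of 21 genes that work with beta-arrestins in endocytosis and ubiquitination, 9 were below and 12 above wild type (median 0.013). Dnm2 (dynamin 2), which pinches off clathrin-coated vesicles, had a difference of -0.20. Usp33, which removes ubiquitin from beta-arrestin, had -0.10, and Ap2b1, the clathrin adaptor subunit that beta-arrestins bind, -0.078. Adjusted p-values of these 6 genes ran from 0.177 to 0.597 (limma).

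The list of other Rgs genes held 17 genes, the Rgs-binding protein genes Rgs7bp and Rgs9bp included. Of the 17, 11 were below and 5 above wild type (median -0.020). None had an unadjusted p under 0.05 (limma), and 8 had means above the silent Y-linked clusters. The 3 with the smallest p were Rgs12 (-0.10), Rgs18 (0.19) and Rgs6 (-0.078). Of 11 other arrestin-fold proteins and receptor kinases, 9 were below and 2 above wild type (median -0.053). The alpha-arrestin gene Txnip, known for binding thioredoxin and lowering glucose uptake, had log2 signals of 10.49, 10.73, 10.31 and 10.23 in Bcl6 cKO, against 10.62, 11.12, 10.61 and 11.42 in wild type. The groups overlapped and the difference of -0.50 did not pass (adjusted p = 0.322). Another alpha-arrestin gene, Arrdc3, had -0.18, and Sag, the visual arrestin, -0.088.

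Since Rgs1 and Rgs16 are induced by activation, 15 activation genes were set beside them. Of these 7 were above and 8 below wild type (median -0.13), and none passed (limma; 3 higher and 1 lower at an unadjusted p under 0.05). Cd44, an adhesion receptor, had a log2 difference of 0.82 (adjusted p = 0.178), the cytokine gene Il2 0.57 and Nfkbid, an inhibitor-like regulator of NF-kappaB, -0.24. The part of activation in the Rgs1 and Rgs16 values was not tested.

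**Figure D3:**
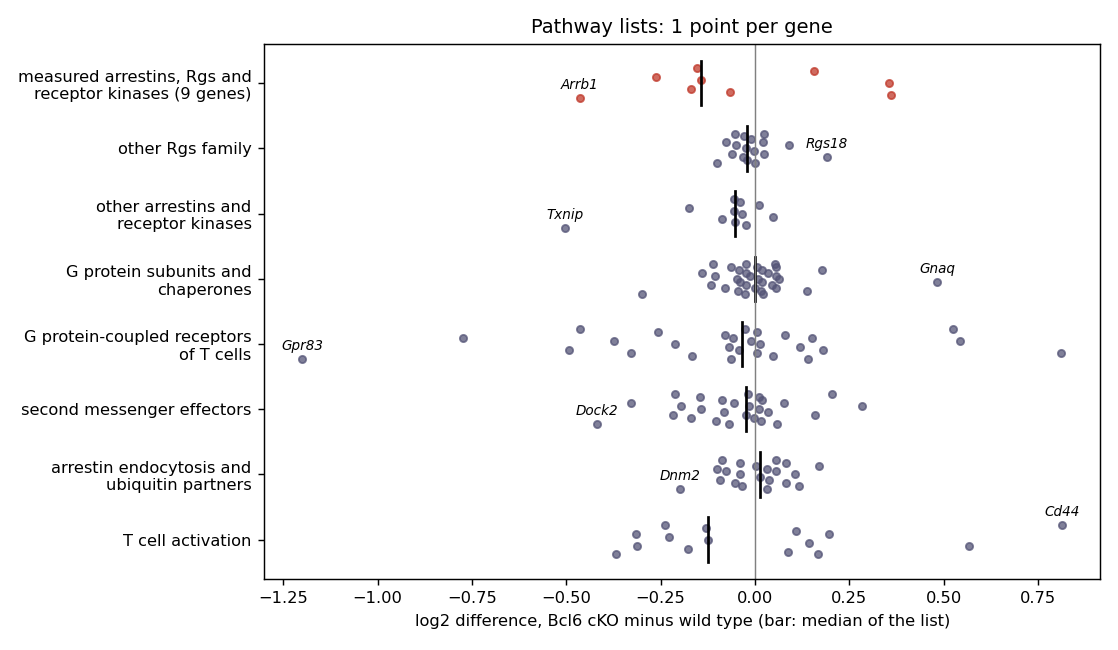
Log2 difference (Bcl6 cKO minus wild type) of each gene in the 9 measured members, the 6 pathway lists and the activation list, 1 point per gene, with the list median as a bar. Medians of the pathway lists lie between -0.053 and 0.013; the member with the largest absolute difference is Arrb1, and Gpr83 lies farthest left at -1.2.

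The genes most like Arrb1 over the 8 arrays, by the root mean square difference of centred log2 values, were Cd96 (0.064), Rassf2 (0.066), Slc12a7 (0.071), Skap1 (0.075) and Orai2 (0.082). Arrb1 was chosen for its difference between the genotypes, so genes with such a difference are favoured. Cd96, a receptor of T cells and natural killer cells on chromosome 16, had log2 signals of 10.79, 10.43, 10.51 and 10.63 in Bcl6 cKO, against 10.94, 11.04, 11 and 11.09 in wild type. Bcl6 cKO replicate 1, the male array of its group, was nearest to wild type for Cd96, as it was for Arrb1. The potassium-chloride cotransporter gene Slc12a7 had 9.81, 9.50, 9.58 and 9.51 in Bcl6 cKO, against 10.08, 10.10, 9.89 and 10.16 in wild type. Rassf2, a Ras-association domain gene, Skap1, a T cell adaptor gene, and Orai2, a calcium channel subunit gene, had differences of -0.36, -0.42 and -0.48. None of the 5 passed over all genes (limma, adjusted p between 0.0561 and 0.126).

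**Figure D4:**
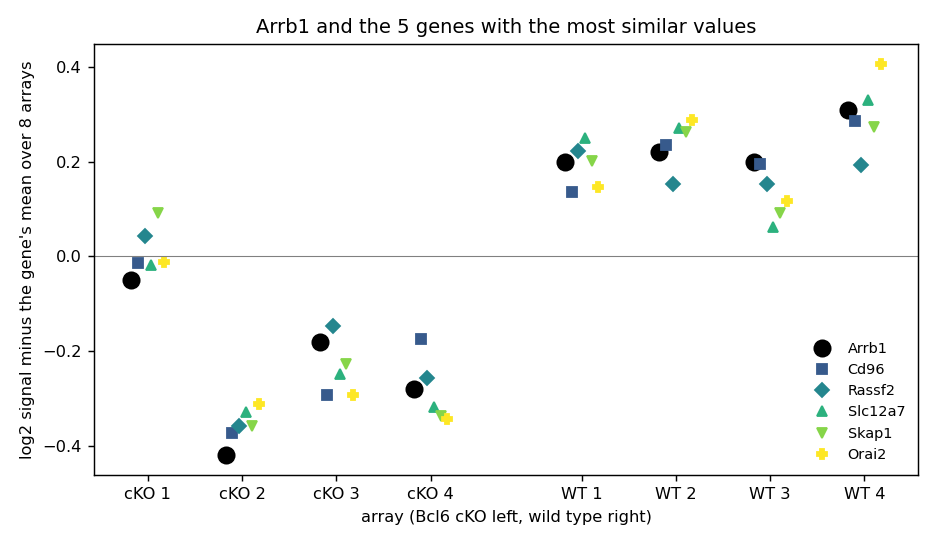
Log2 signal of Arrb1 (large circles) and its 5 most similar genes on each array, centred on each gene's mean over the 8 arrays, Bcl6 cKO left and wild type right. Bcl6 cKO replicate 1 lies nearest to wild type for Arrb1, Cd96, Rassf2, Slc12a7, Skap1 and Orai2.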

How the data were processed

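Each array comes with log2 signals per transcript cluster, as deposited. RMA and Partek are named, per the submitters' processing notes; for versions, settings and genome build nothing was found (not given in the sources used here). RMA brings the probe signals of all arrays to 1 distribution before they are summarised, so the summarised values can still differ slightly in scale between arrays. Summarised signals understate differences of dim genes. Of 35556 clusters, 21789 carry 1 gene symbol, and the cluster with the highest mean was kept per gene, which left 19938 genes. The R package limma 3.58.1 (R 4.3.3; eBayes after lmFit, no trend) was fitted on the deposited log2 values over all genes, without covariates, with Benjamini-Hochberg adjustment and a threshold of 0.05. Differences are Bcl6 cKO minus wild type. The script was tested on simulated data. Members, gene lists, marker lists, other settings and the rule for named genes were chosen with earlier results of these data known. The rule takes all members, per list the genes past the threshold or else the 3 with the smallest p, and the 5 genes most like Arrb1 (passing over pseudogenes, antigen receptor segments, predicted models, clones, and receptors of the olfactory and vomeronasal kind), beside Bcl6, the sex-linked genes and markers whose level is given. Other settings covered moderation, array weights, normalization, filters, clusters per gene, sex, replicate number and leaving out each array. Promoter sequences and gene order came from RefSeq tables of GRCm38.p6. Of 143 pathway genes 6 were not matched and were not analysed here. Sex was read from Kdm5d, Uty, Eif2s3y and Xist.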

Additional observations from a re-analysis of the deposited data

How the results depend on the processing

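The log2 difference of Arrb1 was negative in each of the 20 other settings (8 without 1 array, 12 others) and ran from -0.60 to -0.26. It did not pass after quantile normalization (-0.46), with sex as a term (-0.43), or within the male (-0.26) and female arrays (-0.60). With the replicate number as a block it was -0.47 (adjusted p = 0.067). By the rule used, which asks for a correlation over 0.1 in every pair, the numbers were not taken to pair the samples: deviations of same-numbered arrays correlated at 0.073, 0.21, 0.20 and 0.20, and 3 of the 4 numbers matched best with themselves, a hint from the data that they may share something. In each of these settings 0 members passed, and with the block 7 of the 9 had an unadjusted p under 0.05. Without 1 array the difference lay between -0.53 and -0.40, and 0 to 1 members passed.

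Genes past the threshold numbered 44 over all genes and 35 with the block. There were 91 with trend and robust moderation, 80 with array weights, 67 and 75 with the filters on mean signal, 10 with sex as a term, 0 within the male arrays (limma, 852 at an unadjusted p under 0.05), 43 within the female arrays, 93 with odd or even number as a term, and 11 to 139 without 1 array. By direction 21 were higher and 23 lower, against 19 and 13 after median centring and 22 and 14 after quantile normalization. The split leaned to lower with trend and robust moderation (30 and 61), array weights (29 and 51), the filters (25 and 42, 23 and 52), odd or even number as a term (33 and 60) and without Bcl6 cKO replicate 1 (39 and 100), and to higher within the female arrays (32 and 11). Of the pathway genes 0 passed, and 1 passed with array weights (Gpr83), with the filter at the median (Gpsm3) and with the block (Gpr83). With odd or even number as a term 2 passed (Gpr83 and Gnaq), and without 1 array 0 to 3, the 3 being Gpr83, Gpsm3 and Ptger2 without Bcl6 cKO replicate 1. Ptger2 was named after its value was seen.

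The sign turned for Rgs2 without Bcl6 cKO replicate 3 (-0.079) and within the male arrays (-0.063), for Rgs3 (0.05) and Rgs16 (-0.017) within the male arrays, and for Grk5 without wild-type replicate 2 (0.021). Without 1 array, Rgs2 ran from -0.079 to 0.31 and Grk5 from -0.16 to 0.021. The other members kept theirs in all 20 settings. The causes were not tested. Wild-type replicate 4 had the lowest array weight (0.37), and it is the lone wild-type female array, so the female values rest on it.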

Other observations

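Members differed in their spread within groups. Rgs2, Rgs16 and Grk5 had larger within-group SDs than 99.0%, 97.7% and 94.9% of all genes, while Arrb2, Grk6 and Rgs14 stood at 6.07%, 36.7% and 41.9%. Odd-numbered arrays were above even-numbered ones by 0.39 in Rgs2, 0.25 in Rgs16, 0.18 in Rgs3 and 0.13 in Grk6 (log2, genotype but not sex in the model). Their standard errors were 0.16, 0.13, 0.070 and 0.049. The Rgs2 value includes the lone high reading of Bcl6 cKO replicate 3 (8.41). For Grk5 the odd minus even difference was -0.30, with a standard error of 0.073. Genes outside the set, such as Arrdc4 and Nr4a1, split by number too. Number overlapped with sex in part, since the male arrays were Bcl6 cKO replicate 1 and wild-type replicates 1, 2 and 3. Odd-numbered arrays were thus mostly male and even-numbered ones mostly female, and effects of sex and number were not separated.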
